A study of Mus musculus with 6 samples.

Results

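The zinc transporters and metallothioneins of the mouse pancreas were compared between mice that overexpress Prox1 in the endocrine lineage and their controls. The set holds 10 genes: the exporters Slc30a8, Slc30a1, Slc30a2, Slc30a4, Slc30a5 and Slc30a7, the importers Slc39a5 and Slc39a14, and the metallothioneins Mt1 and Mt2. They were chosen by name, with earlier results of these data known. All 10 were found, with 16 of the 34958 probe sets that the array annotation ties to a single gene symbol, among 18194 genes in all. A probe set is the group of short probes on the array that reads 1 transcript region, and each gene was read from its brightest probe set (highest mean of the 6 arrays).

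RNA of whole pancreas was profiled from NMRI mice on postnatal day 15, with 1 array per sample. The tested mice, labelled Prox1-OE (n = 3), had the genotype Jojo-Prox1 with Ngn3-cre, and the control mice (n = 3) had Ngn3-cre alone, so that both groups carried the Cre driver. Ngn3-cre acts in the progenitors of all endocrine cell types of the pancreas and not in beta cells alone. The labels name no treatment and give no animal or litter for a sample, so that the p-values speak for the spread of these arrays only, which may be technical. The purpose was to find expression changes that follow overexpression of the homeobox transcription factor Prox1 in beta cells.

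Cells hold almost no free zinc. Exporters of the Slc30 family (ZnT proteins) move zinc out of the cytosol, across the plasma membrane or into organelles, and importers of the Slc39 family (ZIP proteins) move it into the cytosol. Metallothioneins are small cysteine-rich proteins that bind surplus zinc, and their genes, with Slc30a1, are textbook targets of Mtf1, the transcription factor that senses zinc and binds metal response elements. In beta cells Slc30a8 (ZnT8) loads zinc into secretory granules, where insulin is stored as a zinc-bound crystal. Acinar cells, which make up most of the pancreas, also secrete zinc with their enzymes.

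Deposited values are log2 probe set summaries, so a difference of 1 is a doubling, and the array medians lay between 4.38 and 4.42. The acinar enzyme gene Cela3b read between 14.71 and 14.92 and the insulin gene Ins2 between 12.62 and 13.44, so that the defining genes of exocrine tissue and of islets were present. Prox1 itself read 5.30, 4.98 and 5.31 in Prox1-OE pancreas, against 5.61, 4.90 and 4.90 in control pancreas, with overlapping groups and a difference of 0.06 ± 0.20 (SE; limma adjusted p = 0.971). Whether its probe set, placed for the 3' end of the natural transcript, also reads the transgene is not known, so this does not check the labels. Prox1-OE replicate 1 stood apart on the first principal component (score -28.73, against -4.37 to 16.74 on the other 5 arrays), and control replicate 3 on the second (21.32, against -11.65 to 6.42). Each difference is therefore also given without them where that matters. RNA quality, read as the log2 difference of 3' over 5' probes for beta-actin and Gapdh, was 0.93 ± 0.01 in Prox1-OE and 0.95 ± 0.04 in control (SD, n = 3 each; exact two-sided permutation p = 0.7).

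The promoters of the metal-responsive members are shown because the metallothionein genes and Slc30a1 all had positive differences on their brightest probe sets. Since they were picked by this outcome, their matches are a description and test nothing about the differences. RefSeq windows from 250 bases before to 50 bases after the annotated start, on the GRCm38.p6 build, were found for 8 of the 10 members, Slc30a8 and Slc39a14 being the others. Capitals mark the core of the metal response element, searched as TGCACNC and TGCGCNC on both strands, and the sequences run 5' to 3' in the direction of the gene. The Mt1 window is chr8:94178839-94179138, that of Mt2 is chr8:94172368-94172667, and that of Slc30a1 is chr1:191906531-191906830, each on the + strand.
Mt1: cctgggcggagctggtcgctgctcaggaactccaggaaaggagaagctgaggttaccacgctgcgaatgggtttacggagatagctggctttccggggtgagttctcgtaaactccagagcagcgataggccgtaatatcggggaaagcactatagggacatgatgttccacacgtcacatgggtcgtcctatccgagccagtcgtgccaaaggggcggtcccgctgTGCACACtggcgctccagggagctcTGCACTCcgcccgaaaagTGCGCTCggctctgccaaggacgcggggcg
Mt2: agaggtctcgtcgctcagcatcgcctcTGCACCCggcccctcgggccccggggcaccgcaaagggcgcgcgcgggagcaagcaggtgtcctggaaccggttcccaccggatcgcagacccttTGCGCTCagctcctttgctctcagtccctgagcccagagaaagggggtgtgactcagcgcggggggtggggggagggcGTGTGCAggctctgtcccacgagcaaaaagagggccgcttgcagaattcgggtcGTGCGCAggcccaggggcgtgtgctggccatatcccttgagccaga
Slc30a1: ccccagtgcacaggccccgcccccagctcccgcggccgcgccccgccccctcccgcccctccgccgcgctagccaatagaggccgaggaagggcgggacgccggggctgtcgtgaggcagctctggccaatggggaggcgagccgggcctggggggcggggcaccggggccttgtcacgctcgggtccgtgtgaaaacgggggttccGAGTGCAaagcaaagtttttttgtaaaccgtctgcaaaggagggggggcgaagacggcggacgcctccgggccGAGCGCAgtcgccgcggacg
Mt1 held 3 matches, Mt2 held 4 and Slc30a1 held 2. Of all 32851 promoter windows, 25.7% held at least 1 match, 7.11% at least 2, 1.97% at least 3 and 0.517% at least 4. Slc30a4, whose difference was the smallest of the members, also held 3, Slc30a2 held 2, Slc30a5 held 1, 1 of the 2 windows of Slc39a5 held 1, and Slc30a7 held none. No match of one motif overlapped another in the 3 sequences printed. A match is a run of letters and not a measured binding site, and the windows rest on the annotated starts. Mt1 and Mt2 are direct neighbours in RefSeq.

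None of the 10 members passed an adjusted p of 0.05 in the limma fit of all 18194 genes, in which 5 genes, or 0.0275%, were called. The 3 members with groups that did not overlap were Slc30a8 and Slc39a5, both lower in Prox1-OE, and Slc30a1, higher in Prox1-OE. Over all genes 7.02% were separated downwards and 5.05% upwards. At an unadjusted p under 0.05 stood 4 members, Slc30a8 and Slc39a5 on the lower side and Slc30a1 and Mt2 on the higher side, where 6.65% of all genes stood in either direction (3.7% lower and 2.94% higher). Across the 10 members 4 differences were positive and 6 negative, with a median of -0.11, against -0.01 over all genes. Since the members were chosen with earlier results of these data known, these counts describe them and test nothing about the set.

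**Figure D1:**
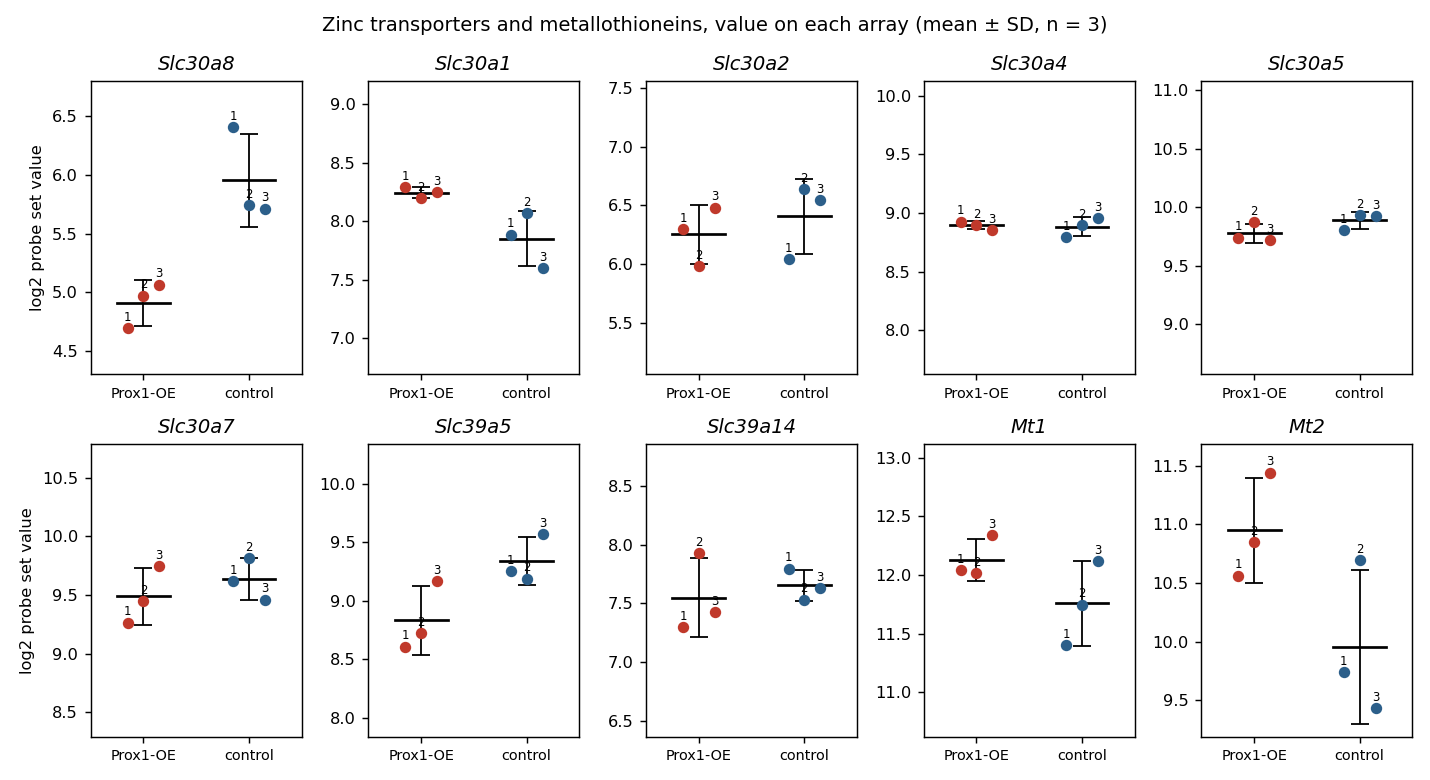
Log2 probe set value of each member on each array, Prox1-OE left and control right of it. Points are arrays with their replicate number, bars are the mean ± SD (n = 3), and every panel spans 2.5 log2 units. Slc30a8 shows the widest gap between groups (4.69 to 5.07 in Prox1-OE, 5.71 to 6.41 in control), and Slc30a4 and Slc30a5 show almost none.

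Slc30a8, the zinc transporter of insulin granules, had the largest difference of the members in size. It read 4.69, 4.97 and 5.07 on the 3 Prox1-OE arrays, against 6.41, 5.74 and 5.71 on the 3 control arrays. All Prox1-OE arrays lay below all controls, by a gap larger than the range within the Prox1-OE group and smaller than the range within the control group. The difference was -1.05 ± 0.19 (log2, SE; 95% interval -1.49 to -0.60), or 2.06-fold lower, with unadjusted p = 6.11e-04 and limma adjusted p = 0.618 over all genes. The gene has 1 named probe set, which read near the middle of all genes (percentile 51.0 of mean levels). Summaries of dim probe sets are compressed, so the fold may be understated. Leaving out any 1 array gave differences from -1.17 to -0.82, the smallest without control replicate 1, the highest control.

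The levels of islet genes stood beside this. Of 9 measured beta cell markers (Slc30a8 left out) 9 were negative, with a median difference of -0.45 and none past the threshold over all genes. In 6 of them the groups did not overlap, and 6 stood at an unadjusted p under 0.05, all lower in Prox1-OE (7.02% and 3.7% of all genes). Their mean, set to the control mean, was -0.44, -0.62 and -0.71 on the Prox1-OE arrays, against 0.21, 0.04 and -0.24 on the control arrays. Alpha cells also make Slc30a8, and the mean of 4 measured alpha cell markers was -0.29, -0.06 and -0.16 in Prox1-OE, against 0.26, -0.11 and -0.14 in control. Of these 4 markers 3 were negative. In 1, the dim Pou3f4, the groups did not overlap and the unadjusted p was under 0.05, lower in Prox1-OE (7.02% and 3.7% of all genes). The part of either cell type in the difference of Slc30a8 was not tested. Whole pancreas averages over cell types, so fewer beta cells and less RNA per beta cell cannot be told apart. Ins2 read 13.04, 12.72 and 12.77 in Prox1-OE, against 13.44, 13.02 and 12.62 in control, and the groups overlapped. Iapp, the islet amyloid peptide, read 12.67, 12.31 and 12.40 in Prox1-OE, against 12.86, 12.62 and 12.36 in control, and also overlapped. Slc2a2, the glucose transporter of beta cells, read 5.49, 5.14 and 4.79 in Prox1-OE, against 6.31, 6.57 and 6.22 in control, with no overlap.

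Slc30a8 was then set against these genes within each array. Since Slc30a8 alone separates the groups, its level relative to 97.6% of all other genes was also lower in every Prox1-OE array than in any control array. Relative to Ins2 it lay lower in every Prox1-OE array than in any control array, by -0.86 ± 0.23 (SE; 95% interval -1.51 to -0.21). Relative to Iapp the change was -0.89 ± 0.25 (95% interval -1.57 to -0.21), again with no overlap. Relative to Slc2a2 it was 0.18 ± 0.41 (95% interval -0.97 to 1.33), and the arrays overlapped. Chga, which encodes chromogranin A of endocrine granules, differed by more than Slc30a8 did. Relative to Chga, Slc30a8 changed by 0.46 ± 0.21 (95% interval -0.11 to 1.03). Here it lay higher in every Prox1-OE array (-2.72 to -2.22) than in any control array (-3.20 to -2.76). Chga was the only gene called lower, with the lowest difference of all genes (-1.51 ± 0.14, limma adjusted p = 0.0217). Of 8 measured endocrine granule markers 7 were negative, with a median of -0.19. In 2, Chga and Ptprn2, the groups did not overlap, and both stood at an unadjusted p under 0.05, lower in Prox1-OE (7.02% and 3.7% of all genes). The exact two-sided permutation p was 0.1 for Ins2, Iapp and Chga and 0.7 for Slc2a2, where 0.1 is the smallest that 3 against 3 arrays allow. After Benjamini-Hochberg adjustment over the 4 pairs, exact p was 0.133 for the first 3 and 0.7 for Slc2a2, so none of the 4 could pass. These 4 genes were chosen with earlier results known. The Ins2 and Iapp probe sets are among the brightest of the array and that of Ins2 can bind related transcripts, and whether this flattens a change was not tested.

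**Figure D2:**
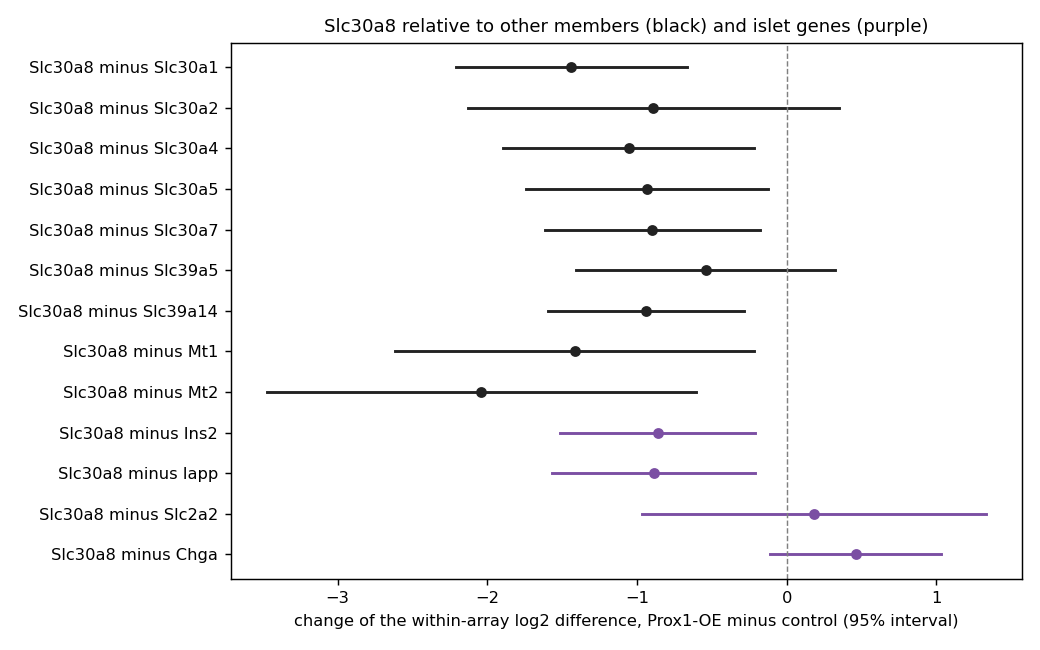
Change of the within-array log2 difference between Slc30a8 and each other gene, Prox1-OE minus control. Points are the change, lines its 95% interval from the pooled spread (n = 3 each), black for the other members and purple for islet genes. The points run from -2.04 against Mt2 to -0.54 against Slc39a5 among members, and lie above 0 against Slc2a2 and Chga.

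Against the 9 other members, Slc30a8 lay relatively lower in every Prox1-OE array than in any control array for 8, a share below the 97.6% of all other genes, so the count says nothing particular about the members. The change was -1.06 ± 0.30 relative to Slc30a4 (95% interval -1.89 to -0.22) and -0.93 ± 0.29 relative to Slc30a5 (-1.74 to -0.12). It was -0.90 ± 0.26 relative to Slc30a7 (-1.62 to -0.18) and -0.94 ± 0.24 relative to Slc39a14 (-1.60 to -0.29). The largest changes were relative to Slc30a1 (-1.44 ± 0.28), Mt1 (-1.42 ± 0.43) and Mt2 (-2.04 ± 0.52), which themselves read higher in Prox1-OE. Relative to Slc30a2 it was -0.89 ± 0.45, with an interval that includes 0 (-2.13 to 0.35). The exception was Slc39a5, with -0.54 ± 0.31 and overlapping arrays (-1.41 to 0.32). Exact two-sided permutation p was 0.1 for the 8 pairs and 0.2 for Slc39a5, or 0.113 and 0.2 after adjustment over the 9 pairs, so that none could pass.

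Slc39a5 (ZIP5), an importer that pancreatic acinar cells carry on their basolateral membrane in mice, read lower in Prox1-OE. Its values were 8.61, 8.73 and 9.17 on the Prox1-OE arrays, against 9.25, 9.19 and 9.57 on the controls. The groups did not overlap, though Prox1-OE replicate 3 came within a small step of control replicate 2. The difference was -0.50 ± 0.16 (SE; 95% interval -0.88 to -0.13), 1.42-fold lower, with unadjusted p = 0.0150 and limma adjusted p = 0.690. It lay between -0.67 and -0.39 without any 1 array, and was smallest without Prox1-OE replicate 1 (-0.39) or control replicate 3 (-0.39). Of 10 measured acinar markers 10 were negative, by a median of -0.08, and 6 had groups that did not overlap, all lower in Prox1-OE (7.02% of all genes). Among these 6 were Cela1, Cela3b and Ctrb1, which with Cpa1 and Cel read from 14.40 to 14.92. Cela3b gave the highest value of every array, and whether such brightness flattens a change was not tested. The others of the 6 were Bhlha15, Nr5a2 and Aqp12. The acinar mean, set to the control mean, was -0.13, -0.16 and -0.06 in Prox1-OE, against 0.02, -0.03 and 0.01 in control. The beta cell markers given above had a median difference of -0.45. The part of acinar cells or of beta cells in the Slc39a5 difference was not tested.

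Slc39a14 (ZIP14), an importer of zinc and iron that inflammation induces in liver, did not differ measurably on its brightest probe set. It read 7.30, 7.93 and 7.43 in Prox1-OE, against 7.80, 7.53 and 7.63 in control. The difference was -0.10 ± 0.16 (95% interval -0.48 to 0.27; limma adjusted p = 0.930) and became 0.02 without Prox1-OE replicate 1. Its 3 other probe sets gave -0.27, -0.15 and 0.19, in order of brightness. In the fit of all probe sets their limma adjusted p ran from 0.766 to 0.917. The dimmest of them and the brighter one at -0.27 separated the groups in opposite directions.

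Slc30a1 (ZnT1), the zinc exporter of the plasma membrane, read higher in Prox1-OE. It read 8.29, 8.19 and 8.25 on the Prox1-OE arrays, against 7.88, 8.07 and 7.60 on the controls. The Prox1-OE arrays lay close together and all above the highest control. The difference was 0.39 ± 0.12 (SE; 95% interval 0.11 to 0.68), 1.31-fold higher, with unadjusted p = 0.0129 and limma adjusted p = 0.690. Without control replicate 3, the lowest control, it was 0.27, and it was 0.17 on the mean of both probe sets. The dimmer probe set of the gene read 5.60, 5.57 and 5.80 in Prox1-OE, against 5.70, 5.81 and 5.59 in control, a difference of -0.05 ± 0.10. The 2 probe sets thus did not show the same change.

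Mt2, a metallothionein that binds surplus zinc, had the largest positive difference of the members. It read 10.56, 10.85 and 11.44 on the Prox1-OE arrays, against 9.74, 10.69 and 9.43 on the controls. Control replicate 2 lay above Prox1-OE replicate 1, so the groups overlapped by 1 array on each side. The difference was 0.99 ± 0.33 (SE; 95% interval 0.23 to 1.75), 1.99-fold higher, with unadjusted p = 0.0165 and limma adjusted p = 0.690. It was 0.73 without control replicate 3 and 1.36 without control replicate 2.

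Mt1, the neighbouring metallothionein gene, differed less on its brightest probe set. That probe set is of a type that can bind related transcripts, and it read 12.04, 12.01 and 12.34 in Prox1-OE, against 11.40, 11.75 and 12.12 in control. Control replicate 3 lay above 2 of the Prox1-OE arrays. The difference was 0.37 ± 0.18 (95% interval -0.04 to 0.79; limma adjusted p = 0.763), and ran from 0.20 without control replicate 1 to 0.56 without control replicate 3. The dimmer probe set read 6.97, 6.72 and 7.48 in Prox1-OE, against 6.17, 6.58 and 6.24 in control, with no overlap. Its difference was 0.73 ± 0.19 (95% interval 0.29 to 1.17; unadjusted p = 0.00485, limma adjusted p = 0.760 over all probe sets). The order of the control arrays was not shared: control replicate 3 was the highest control for the bright Mt1 probe set and the lowest for Mt2.

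**Figure D3:**
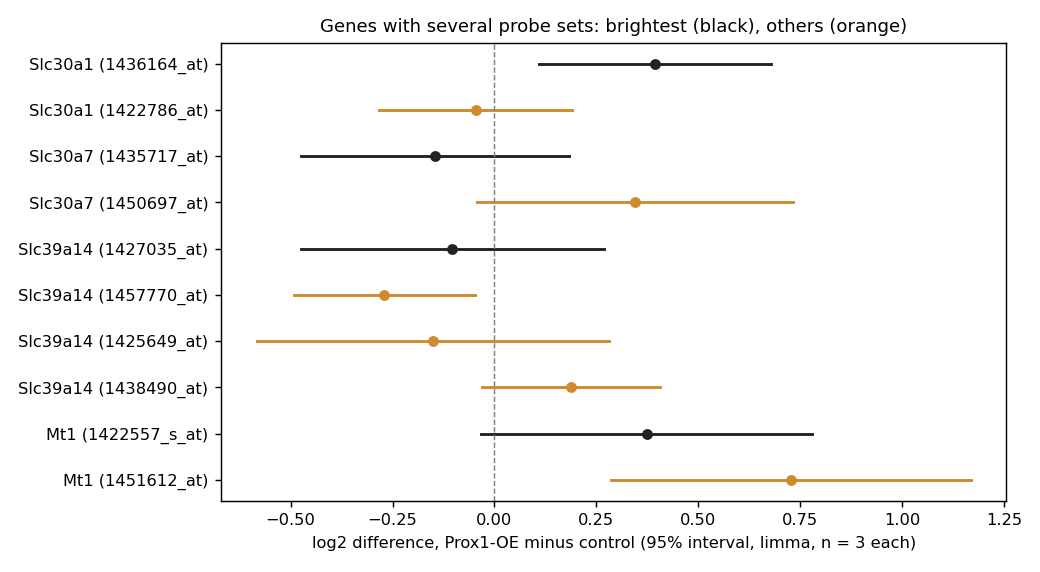
Log2 difference, Prox1-OE minus control, of every probe set of the 4 members that have several, with its 95% interval (limma fit of all named probe sets, n = 3 each). Black marks the brightest probe set of a gene and orange the others. Both Mt1 probe sets lie above 0 (0.37 and 0.73), while those of Slc30a1, Slc30a7 and Slc39a14 fall on both sides of it.

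Exporters of the Golgi and vesicles showed no measurable difference. Slc30a4 (ZnT4) read 8.93, 8.90 and 8.86 in Prox1-OE, against 8.80, 8.90 and 8.95 in control. Its difference of 0.01 ± 0.09 (95% interval -0.19 to 0.21) was the smallest of the members and changed sign under other settings. Slc30a5 (ZnT5), which supplies zinc to enzymes of the early secretory pathway, read 9.74, 9.87 and 9.72 in Prox1-OE, against 9.81, 9.93 and 9.92 in control. Its groups overlapped, with a difference of -0.11 ± 0.09 (95% interval -0.32 to 0.09; limma adjusted p = 0.832). For both genes the interval leaves out a difference the size of that of Slc30a8.

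Slc30a7 (ZnT7), also of the early secretory pathway, read 9.26, 9.45 and 9.75 in Prox1-OE, against 9.62, 9.82 and 9.46 in control. The difference was -0.15 ± 0.15 (95% interval -0.48 to 0.19; limma adjusted p = 0.865), -0.03 without Prox1-OE replicate 1 and -0.23 without control replicate 3. Its other probe set gave 0.34 ± 0.17 (limma adjusted p = 0.806 over all probe sets), and the mean of both gave 0.10, so no direction can be given. Slc30a2 (ZnT2), which in mice loads zinc into the zymogen granules of acinar cells, read 6.30, 5.99 and 6.48 in Prox1-OE, against 6.04, 6.64 and 6.54 in control. Its difference was -0.15 ± 0.18 (95% interval -0.57 to 0.27; limma adjusted p = 0.894), from -0.34 without control replicate 1 to -0.02 without Prox1-OE replicate 2.

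All 4 other Slc30 exporters were measured, 2 with a positive and 2 with a negative difference, from -0.06 for Slc30a3 to 0.07 for Slc30a10, and with a median of -0.00059. Slc30a3 carries zinc into synaptic vesicles, and Slc30a10, which read 2.91 to 3.18 and thus below the array medians, exports manganese. Slc30a6, of the Golgi, differed by 0.02 ± 0.08. None of the 4 passed the threshold or an unadjusted p of 0.05.

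Of the 12 other Slc39 importers 10 were negative, with a median of -0.10, and 0 passed over all genes. At an unadjusted p under 0.05 stood 3, all lower in Prox1-OE (3.7% of all genes). Slc39a13 (ZIP13), of the early secretory pathway, read 6.48, 6.73 and 6.34 in Prox1-OE, against 6.87, 6.76 and 6.88 in control, with no overlap and a difference of -0.32 ± 0.11 (limma adjusted p = 0.702). Slc39a11 (ZIP11) read 9.50, 9.78 and 9.74 in Prox1-OE, against 9.91, 9.89 and 9.98 in control, also with no overlap (-0.25 ± 0.10, limma adjusted p = 0.730). Slc39a3 (ZIP3) differed by -0.31 ± 0.14 with overlapping groups (limma adjusted p = 0.748).

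**Figure D4:**
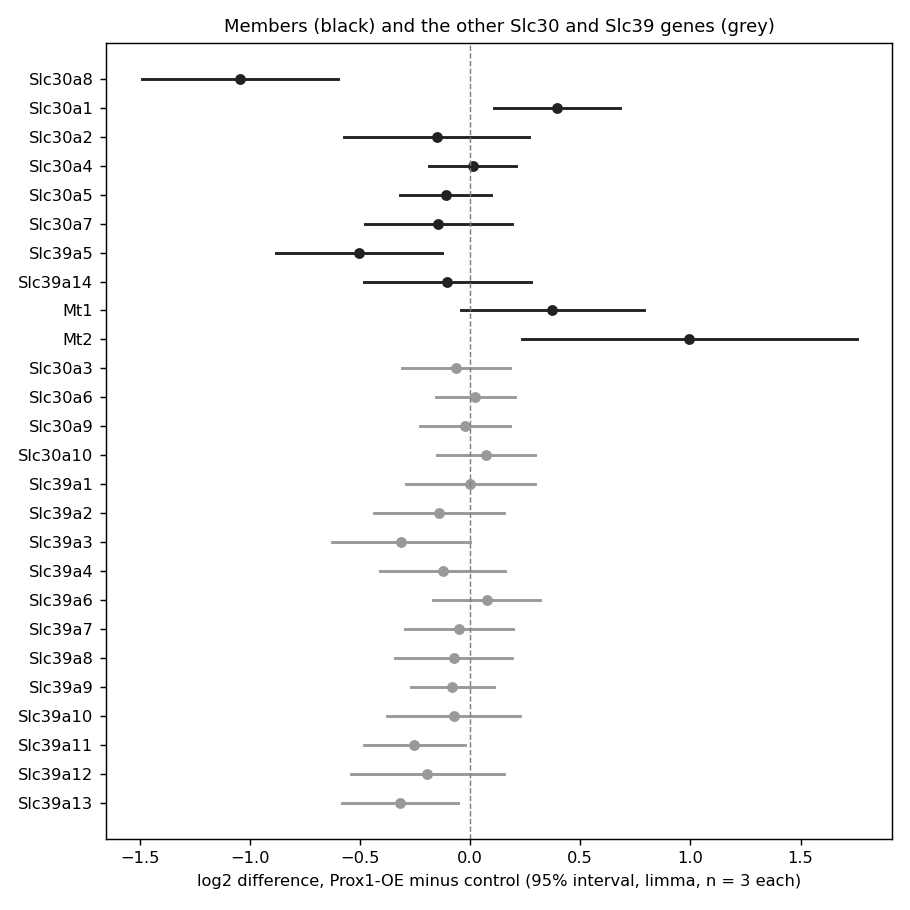
Log2 difference, Prox1-OE minus control, with its 95% interval (limma fit of all genes, n = 3 each) for the 10 members in black and the 16 other Slc30 and Slc39 genes in grey. Slc30a8 at -1.05 and Mt2 at 0.99 mark the ends, and all grey points lie between -0.32 and 0.07.

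A separate list of 6 genes of metal response and sensing, which leaves out Mt1, Mt2 and Slc30a1, held Mtf1. Mtf1 read 6.22 ± 0.02 in Prox1-OE and 6.23 ± 0.03 in control (SD, n = 3 each), a difference of -0.01. Of the 6 genes 2 were positive and 4 negative, with a median of -0.01 and 0 at an unadjusted p under 0.05. Mt3, a metallothionein known from brain, differed by -0.16 ± 0.15, Gpr39, a zinc-sensing receptor, by 0.05 ± 0.11, and Gclc, of glutathione synthesis, by -0.03 ± 0.08. Of 9 measured genes of copper and iron handling 7 were positive, with a median of 0.04 and none past the threshold or an unadjusted p of 0.05. Its leading members were Steap4, a metalloreductase (0.39 ± 0.20), Slc11a2, the iron importer DMT1 (-0.17 ± 0.09), and Cp, ceruloplasmin (0.25 ± 0.21).

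Metallothionein genes are also known to respond to glucocorticoids and to inflammation, so genes of both responses were read beside them. Of 10 glucocorticoid-induced genes 7 were positive, with a median of 0.05, none past the threshold and 1, Fkbp5, at an unadjusted p under 0.05 (6.65% of all genes). Fkbp5, a co-chaperone of the glucocorticoid receptor, read 6.75, 6.75 and 6.82 in Prox1-OE, against 6.46, 6.46 and 6.67 in control, with no overlap (0.24 ± 0.09, limma adjusted p = 0.724). Tsc22d3, also known as GILZ, differed by 0.20 ± 0.09 with no overlap (limma adjusted p = 0.753), and Cebpd, a transcription factor, by 0.30 ± 0.14 with overlap. The list mean, set to the control mean, was 0.03, 0.05 and 0.20 in Prox1-OE, against -0.12, -0.15 and 0.26 in control, where control replicate 3 was the highest array. Sgk1, with the widest control spread of the list (SD 1.04), weighs heavily in this. It read 9.45, 9.94 and 10.45 in Prox1-OE, against 9.11, 9.56 and 11.10 in control. The list mean without Sgk1 was not computed, so the order of the arrays may rest on that gene.

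Of 11 acute phase genes 10 were positive, with a median of 0.15 and none past the threshold or an unadjusted p of 0.05. Socs3, a feedback inhibitor of cytokine signalling, differed by 0.33 ± 0.17, Osmr, the oncostatin M receptor, by 0.22 ± 0.14, and Lcn2, lipocalin 2, by 0.73 ± 0.44. Macrophage markers had positive differences for 8 of 9 genes, 0 of them past the threshold and 6 at an unadjusted p under 0.05, all higher in Prox1-OE (2.94% of all genes). In 6 the groups did not overlap, again all higher (5.05% of all genes). Their mean over control was 1.10, 0.38 and 0.47 in Prox1-OE, against 0.17, -0.01 and -0.16 in control. Of 6 measured B cell markers 4 were positive, led by Ms4a1 (2.26) and Ighm (1.44), while Cd79a (-0.07) and Pax5 (-0.10) were negative, and none passed the threshold. Their mean gave 1.62, 0.28 and 0.58 in Prox1-OE, against 0.06, -0.04 and -0.02 in control. Prox1-OE replicate 1 was the highest array for both lists, while Prox1-OE replicate 3 was the highest for Mt1 and Mt2. Without Prox1-OE replicate 1 Mt2 differed by 1.19, Mt1 by 0.42 and Slc30a1 by 0.37, and without Prox1-OE replicate 3 they differed by 0.75, 0.27 and 0.39, against 0.99, 0.37 and 0.39 with all arrays. The part of immune cells, of inflammation or of glucocorticoids in these differences was not tested, and the order of so few arrays cannot tell them apart.

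**Figure D5:**
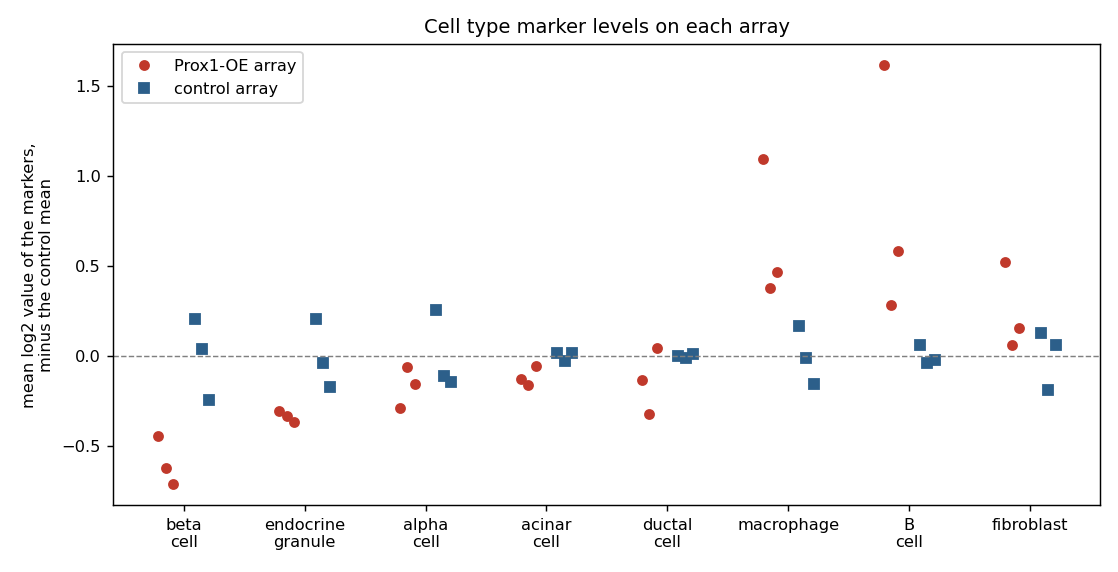
Mean log2 value of each list of cell type markers on each array, minus its mean over the controls. Red circles are Prox1-OE arrays and blue squares control arrays, in replicate order. Beta cell markers lie from -0.71 to -0.44 on Prox1-OE arrays and from -0.24 to 0.21 on controls, and macrophage markers from 0.38 to 1.10 on Prox1-OE arrays and from -0.16 to 0.17 on controls.

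The genes whose values followed a member most closely over the 6 arrays were looked up among 9096 genes above the median level, as a description. With so few arrays and so many candidates, high coefficients are common. Nearest to Slc30a8 was Mlxipl, which encodes the glucose-responsive transcription factor ChREBP (Pearson r = 0.992). It read 6.45, 6.48 and 6.60 in Prox1-OE, against 7.28, 6.89 and 6.92 in control. Acad9 (r = 0.990), Plxnb1 (r = 0.990) and the acinar transcription factor Bhlha15 (r = 0.989) came next, with differences of -0.11, -0.18 and -0.10. Nearest to Slc39a5 were Nnt (r = 0.997), Dcxr (r = 0.996), Acsf2 (r = 0.995) and Pcca (r = 0.995), all metabolic enzymes. Nnt, the mitochondrial transhydrogenase, read 8.54, 8.64 and 9.06 in Prox1-OE, against 9.23, 9.14 and 9.51 in control. Nearest to Mt1 were Gh, Plaur, Efs and Piwil2 (r from 0.978 to 0.981), all of them close to the median level.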

How the data were processed

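Whole pancreas RNA of 6 mouse samples was hybridised to Affymetrix 3' expression arrays, 1 per sample. The authors deposited log2 probe set summaries, made with RMA and Partek 6.5 per the submitters' processing notes, which give no settings. RMA quantile-normalizes arrays, so a change in total RNA per cell cannot be seen. Of 45101 probe sets 34958 had 1 gene symbol in the platform annotation, 932 several and 9211 none, and no gene was named from the last 2 kinds. The assembly for which the probes were designed: not given in the sources used here.

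Prox1-OE and control (3 arrays each, by title) were set against each other in limma 3.58.1 (lmFit, eBayes; R 4.3.3), without covariates or filters and Benjamini-Hochberg adjustment over 18194 genes at 0.05. Unless stated, p-values are two-sided and from limma. Differences within arrays between Slc30a8 and another gene were tested by exact permutation over samples, and their 95% intervals use the pooled spread. The fit was tested on simulated data. The number of arrays limits the precision.

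Named were the 10 members, Ins2, Iapp, Slc2a2 and Chga, the 3 genes of lowest p in each list of other carriers, metal response, copper and iron, glucocorticoid and acute phase genes, and the 4 genes nearest to Slc30a8, Slc39a5 and Mt1. Mtf1, Prox1, Sgk1, Cela3b and other cell type markers were named outside this rule. The members and lists were chosen with earlier results of these data known. List genes without a named probe set (Ins1, Mafa, Trf and others) were not analysed here. The 15 other settings were the choice of probe set, a filter on dim genes, normalization, the variance model, weighted arrays, a block for the replicate number, and leaving out each array. Same-numbered arrays were not taken as pairs, as the labels give no pairing. Their deviations from group means correlated at 0.04, 0.14 and 0.11, though every array correlated best with its own number.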

Additional observations from a re-analysis of the deposited data

How the results depend on the processing

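Under all 15 other settings 0 of the 10 members passed the threshold, and the direction of Slc30a8, Slc30a1, Slc30a2, Slc30a5, Slc39a5, Mt1 and Mt2 held. Slc30a8 ranged from -1.17 to -0.82, with adjusted p from 0.446 to 0.965. Slc30a4 turned to -0.0035 with quantile normalization again, and ranged from -0.032 without control replicate 1 to 0.046 without control replicate 3, with -0.0048 without Prox1-OE replicate 1. Slc30a7 turned to 0.10 on the mean of its probe sets, and Slc39a14 ranged from -0.29 without Prox1-OE replicate 2 to 0.023 without Prox1-OE replicate 1, where it turned. Mt1 was 0.73 where probe sets specific to 1 transcript were preferred. With the replicate number as a block, 2 genes in place of 5 passed over all genes, Slc30a8 stayed at -1.05 (adjusted p = 0.446), and no call among the members changed. The SE fell for Slc39a5 (0.16 to 0.097) and Mt1 (0.18 to 0.12) and rose for Slc30a8 (0.19 to 0.21). At an unadjusted p under 0.05 stood 5 members in place of 4, and the share of all genes in this fit was not computed. Every array correlated best with its own number, a hint from the data and not from the design. Leaving out each array in turn gave 0 to 4 genes over all genes (0 without Prox1-OE replicate 1 or 3, 1 without control replicate 1 or 2, 3 without Prox1-OE replicate 2). In the same 6 fits 3 to 5 members stood at an unadjusted p under 0.05, and 8 or 9 of the 9 within-array differences separated the groups. Groups did not overlap for 4 or 5 members (5 without Prox1-OE replicate 2 or control replicate 1). With all arrays that count was 3, and fewer arrays separate more easily. The shares of all genes in these 6 fits were not computed, so these counts say nothing particular about the members. The counts at an unadjusted p and of groups that do not overlap were added after the data were seen. The causes of these shifts were not tested. RMA compresses the values of dim probe sets, and by how much was not measured here.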
